A study of Mus musculus with 12 samples.

Results

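Histone genes encode the proteins around which DNA is wound in the nucleus. They were taken here as every gene whose symbol in the array's annotation begins with Hist1h, Hist2h, Hist3h or Hist4h, or with H1f, H2ac, H2bc, H3c or H4c followed by a number, and they were measured by probes paired with 1 symbol, with the highest-mean probe kept for each gene. This gave 29 histone genes of 22180 genes in all, with 8 of class H1, 6 of H2A, 8 of H2B, 7 of H4 and 0 of H3. Whole lung RNA was measured in 12 female mice aged 10 weeks, each on 1 array, as log2 expression values. The 4 groups of 3 mice were intact wild type mice, wild type mice under mechanical ventilation, intact Zmpste24-/- mice and ventilated Zmpste24-/- mice. The ventilated mice were given 2.5 hours of positive pressure breaths, at 15 cmH2O with ZEEP and 100 breaths a minute, of gas with an oxygen fraction of 0.21. The intact mice, called baseline below, received no ventilation. The labels call the samples biological replicates, and give neither the strain background nor how the Zmpste24 allele was made.

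Histones come in a core set and a linker. An octamer of H2A, H2B, H3 and H4 wraps DNA into the nucleosome, and H1 binds the DNA that enters and leaves it. Most of the genes lie in clusters, lack introns and are expressed with DNA replication in S phase, when their transcripts end in a stem-loop that is bound by the stem-loop binding protein. A few are also made outside S phase, as polyadenylated transcripts in differentiated cells or as testis and oocyte forms, and most cells of the adult lung are not dividing. Zmpste24 is the protease that matures prelamin A into lamin A, a protein of the nuclear lamina to which chromatin is attached, and ventilation by positive pressure stretches the lung.

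Of the 29 genes, 21 lie on chromosome 13, 5 on chromosome 3, 2 on chromosome 6 and 1 on chromosome 15 in the RefSeq annotation of GRCm38.p6, which all 29 matched by gene ID. In RefSeq order H2ac21, H2ac20 and H2bc21 follow each other on chromosome 3, and H2ac12, H2bc12 and H4c9 follow each other on chromosome 13. The testis pair H2bc1 and H2ac1 are also neighbours there, on opposite strands. The copies of a class are close to identical in sequence, so a probe named for 1 gene may also take up transcripts of another, and each value below is uncertain in that respect. A further 37 histone symbols were carried only by probes with several symbols, which are described by class further down and not by gene.

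The promoters of 5 genes are shown because these genes carry the differences described below and stand for the classes. They are the 250 bases before the RefSeq start (GRCm38.p6), 5′ to 3′ on the gene's own strand, in lower case with matches to 4 motifs in capitals. The motifs were the CCAAT box (CCAAT), the TATA box (TATAAA), the octamer of H2B promoters (ATTTGCAT) and the H1 box (AAACACA), each searched on both strands, so that a match on the other strand appears as its reverse complement. None of these letter strings holds another one whole.
H2ac21 at chr3:96219635-96219884, plus strand: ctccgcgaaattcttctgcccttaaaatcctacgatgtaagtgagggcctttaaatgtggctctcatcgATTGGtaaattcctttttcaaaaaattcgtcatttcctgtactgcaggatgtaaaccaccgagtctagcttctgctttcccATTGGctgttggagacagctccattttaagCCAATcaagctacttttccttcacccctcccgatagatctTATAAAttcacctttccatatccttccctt
H2bc18 at chr3:96269450-96269699, plus strand: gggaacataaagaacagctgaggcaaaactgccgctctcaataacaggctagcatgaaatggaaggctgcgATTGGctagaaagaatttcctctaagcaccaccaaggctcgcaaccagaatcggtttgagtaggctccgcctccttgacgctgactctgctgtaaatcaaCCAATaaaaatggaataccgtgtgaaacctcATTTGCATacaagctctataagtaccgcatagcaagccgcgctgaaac
H4c12 at chr13:21750554-21750803, minus strand: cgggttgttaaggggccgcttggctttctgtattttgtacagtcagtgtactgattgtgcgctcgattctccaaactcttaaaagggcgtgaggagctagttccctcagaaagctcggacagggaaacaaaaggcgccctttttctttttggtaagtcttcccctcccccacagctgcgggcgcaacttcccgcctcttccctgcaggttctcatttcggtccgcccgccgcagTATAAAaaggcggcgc
H4c9 at chr13:22041363-22041612, minus strand: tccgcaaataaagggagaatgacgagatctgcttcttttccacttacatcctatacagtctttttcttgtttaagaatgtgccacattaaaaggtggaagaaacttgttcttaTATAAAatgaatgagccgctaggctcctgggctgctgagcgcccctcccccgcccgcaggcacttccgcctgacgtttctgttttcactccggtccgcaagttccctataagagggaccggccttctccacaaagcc
H1f2 at chr13:23738557-23738806, plus strand: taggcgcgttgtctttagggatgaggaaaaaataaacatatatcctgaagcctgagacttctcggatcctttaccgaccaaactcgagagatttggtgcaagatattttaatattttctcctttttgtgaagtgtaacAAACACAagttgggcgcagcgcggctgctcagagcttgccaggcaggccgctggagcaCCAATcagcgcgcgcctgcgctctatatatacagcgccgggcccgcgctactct
In H2ac21 the CCAAT matches began at positions -181, -100 and -70 and the TATA match at -30, counted in bases from the start. H2bc18 had CCAAT matches at -179 and -79 and the octamer at -48. Both H4 genes held a TATA match only, at -16 in H4c12 and at -137 in H4c9. H1f2, the linker gene, had its H1 box at -112 and a CCAAT match at -54.

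RefSeq promoters were found for 27 of the 29 genes, leaving H2bc21 and H4c14 without one. Over windows of 300 bases, 250 before and 50 after the start, the CCAAT letters were in 20 of 27 histone promoters (74.1%) and in 37.4% of all 32851 promoters of the table. They stood in 6 of 6 H2A, 7 of 7 H2B and 6 of 8 H1 promoters, but in 1 of 6 H4 promoters. The octamer was in 8 of the 27 (29.6%), namely 5 of 7 H2B and 3 of 6 H2A promoters, against 1.74% of all promoters. TATAAA was in 16 (59.3% against 13.6%), and the H1 box in 7 (25.9% against 7.18%), of which 4 were among the 8 H1 promoters. A match describes the letters and shows neither a bound factor nor a cause of the values below.

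**Figure D1:**
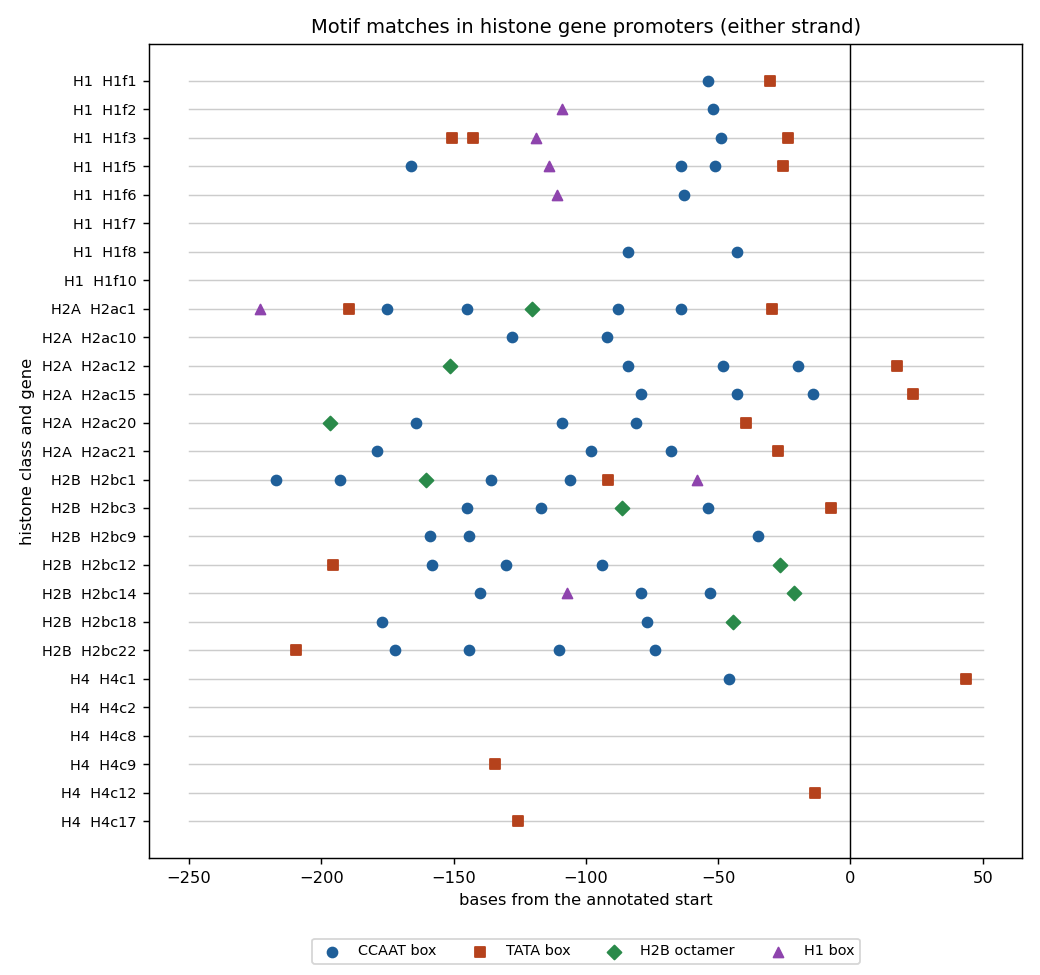
Motif matches in the 27 histone promoters: the x axis is the position relative to the start in bases and each row is a gene, grouped by class. CCAAT matches fill the H2A and H2B rows and are in 1 of 6 H4 rows.

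The label of each mouse was checked first. Zmpste24 read 8.84 ± 0.29 (log2, SD, n = 3) at baseline and 8.90 ± 0.39 under ventilation in wild type lungs, and 5.55 ± 0.31 and 5.39 ± 0.36 in Zmpste24-/- lungs, so no mouse went against its genotype. The 10 markers of lung epithelium and endothelium averaged 11.1 to 11.34 on all 12 arrays, though the endothelial genes Cldn5 and Pecam1 were lower with ventilation in both genotypes. The endothelial gene Cdh5 was lower in intact and in ventilated Zmpste24-/- lungs than in wild type ones (log2 differences -0.35 and -0.31). Under ventilation the epithelial genes Hopx and Ager were higher in Zmpste24-/- lungs (0.38 and 0.31). These differences passed the test described below. Array medians over all probes were 5.35 to 5.42, and no array stood apart, with correlations of 0.986 to 0.992 within groups and 0.97 to 0.988 between groups.

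Few histone genes differed between groups. Each change below is a log2 difference with its standard error from limma on all genes, and a gene passed at a Benjamini-Hochberg adjusted p under 0.05. Loss of Zmpste24 at baseline went with a pass in 3 of 29 histone genes (10.3%), all higher, where 6.31% of all genes were called, 2.2% as higher and 4.11% as lower. Under ventilation 2 of 29 (6.9%) differed by genotype, both higher, against 10.8% of all genes, 4.72% higher and 6.08% lower. Ventilation of wild type lungs gave 1 of 29 (3.45%), lower, against 7.2% of all genes, 3.67% higher and 3.53% lower. Ventilation of Zmpste24-/- lungs gave 6 of 29 (20.7%), with 2 higher and 4 lower, against 16.4% of all genes, 8.89% higher and 7.52% lower. The shares for genotype at baseline and for ventilation in Zmpste24-/- lungs lie a little above the background of their own comparison. Those for ventilation in wild type lungs and for genotype under ventilation lie below theirs. Each share rests on few histone genes. Whether histone genes stand apart from other genes was not tested. In all, 7 histone genes passed at least once, and the contrasts share groups, so the counts are not independent of each other.

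**Figure D2:**
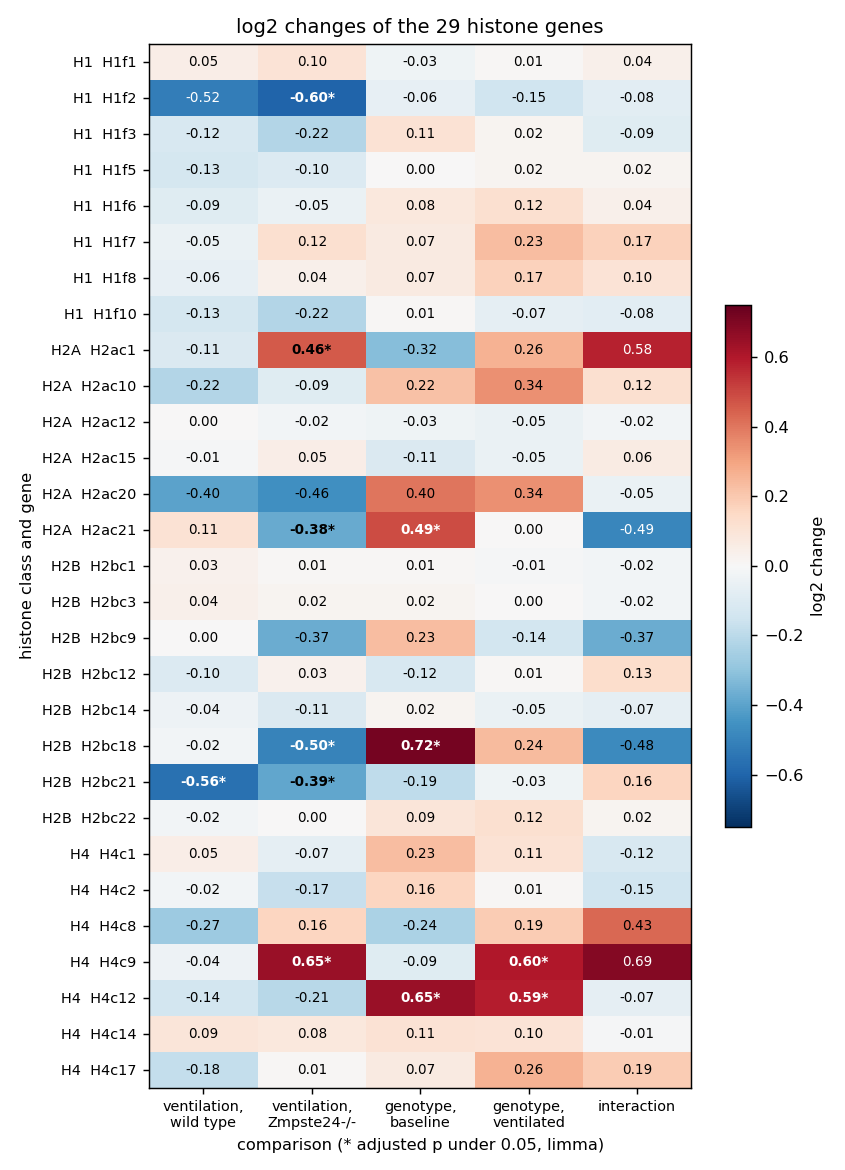
Log2 changes of the 29 histone genes (rows, by class) in the 5 comparisons (columns), coloured by sign and size; bold marks adjusted p under 0.05. Most cells are pale, and the passed cells belong to 7 genes.

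Most histone probes were dim. On all 12 arrays 7 of the 29 genes were above the array's median over all probes, 4 were above it on some arrays and 18 on none. Of the 7 histone genes that passed in a comparison, 3 were above it on all arrays, namely H1f2, H2bc21 and H4c12. The others were below it on most arrays: H2bc18 was above it on 3 of the 12, H2ac21 on 1, H4c9 on 1 and H2ac1 on 4. The values of 14 genes spanned less than 0.5 over the 12 arrays. Values of different probes are not compared with each other here.

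Among the linker histones, H1f2 was the gene that moved, and it was lower after ventilation. H1f2 encodes the H1.2 linker, whose transcript can be polyadenylated in cells that no longer divide. It read 7.16, 7.23 and 7.53 in intact wild type lungs and 6.36, 7.05 and 6.96 in ventilated ones. In Zmpste24-/- lungs it read 7.38, 7.39 and 6.96 at baseline and 6.68, 6.65 and 6.61 under ventilation. In both genotypes every ventilated mouse was below every baseline mouse of that genotype. The fall in Zmpste24-/- lungs was -0.60 ± 0.17 (1.52-fold, adjusted p = 0.0238). In wild type lungs the difference was -0.52 ± 0.17 and did not pass (adjusted p = 0.0831). Single mice moved that wild type difference: it was -0.31 without ventilated wild type mouse 1, where it did not pass, and -0.65 without ventilated wild type mouse 2, where it just passed (adjusted p = 0.05). The call in Zmpste24-/- lungs was lost without Zmpste24-/- baseline mouse 1 or 2 or any 1 of the 3 ventilated Zmpste24-/- mice, with adjusted p of 0.0525 to 0.0893, and with all probes in 1 fit (adjusted p = 0.062). H1f2 differed by genotype by -0.06 in intact lungs (adjusted p = 0.885) and by -0.15 in ventilated lungs (adjusted p = 0.655).

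No other H1 gene passed. The oocyte form H1f8, the spermatid form H1f7, the testis form H1f6 and H1f10, a linker variant not tied to replication, were among them. H1f7 had the class's largest difference by genotype under ventilation, 0.23 ± 0.10 (adjusted p = 0.154; 0.14 without Zmpste24-/- ventilated mouse 1), and H1f3 that at baseline, 0.11 ± 0.11 (adjusted p = 0.626). H1f6 lay between 3.72 and 4.08 on all 12 arrays, below the array median. The median change of the 8 H1 genes was -0.11 with ventilation in wild type lungs, where 7 of 8 were negative, and -0.08 in Zmpste24-/- lungs, against -0.01 for all genes in both. The linker histone H1f0 was not analysed here.

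The H2B gene H2bc18 and the H2A gene H2ac21, whose promoters are printed above, had a like pattern: both were higher in intact Zmpste24-/- lungs than in intact wild type lungs, and both were lower again in ventilated Zmpste24-/- lungs. H2bc18 read 4.90, 4.83 and 5.07 in intact wild type lungs, 5.08, 4.80 and 4.86 in ventilated wild type lungs, 5.76, 5.51 and 5.7 in intact Zmpste24-/- lungs, and 5.19, 5.12 and 5.16 in ventilated Zmpste24-/- lungs. The 3 Zmpste24-/- baseline mice were above the other 9. The genotype difference at baseline was 0.72 ± 0.10 (1.65-fold, adjusted p = 0.00133), the smallest adjusted p of any histone gene in any comparison. With ventilation H2bc18 fell by 0.50 on the log2 scale in Zmpste24-/- lungs (standard error 0.10, adjusted p = 0.0032). The ventilation difference in wild type lungs was -0.02 ± 0.10 (adjusted p = 0.944). Between genotypes under ventilation 0.24 ± 0.10 remained, which did not pass (adjusted p = 0.145), although the groups did not overlap.

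H2ac21 encodes an H2A of the chromosome 3 cluster. Its values were 4.80, 4.63 and 4.94 (wild type baseline), 4.88, 4.83 and 4.97 (wild type ventilated), 5.20, 5.4 and 5.25 (Zmpste24-/- baseline) and 5, 4.93 and 4.76 (Zmpste24-/- ventilated). Again the 3 intact Zmpste24-/- mice were above the other 9. The genotype difference at baseline was 0.49 ± 0.10 (1.41-fold, adjusted p = 0.00973). Ventilation of Zmpste24-/- lungs gave -0.38 ± 0.10 (adjusted p = 0.0153). The same contrast of wild type lungs gave 0.11 ± 0.10 (adjusted p = 0.616). The fall with ventilation was lost without Zmpste24-/- baseline mouse 2 (adjusted p = 0.0679) or Zmpste24-/- ventilated mouse 3 (adjusted p = 0.0783). H2ac21 was the histone gene with a second probe, and that dimmer probe read 0.23 ± 0.08 for genotype at baseline and -0.03 ± 0.08 for ventilation in Zmpste24-/- lungs, neither of which passed. With both probes averaged the ventilation change was -0.21 (adjusted p = 0.0757).

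H2ac20 and H2bc21, the next genes on chromosome 3, did not share this pattern in full. H2ac20, another H2A gene, had the H2A class's largest ventilation difference in wild type lungs, -0.40 ± 0.16 (adjusted p = 0.164). That of Zmpste24-/- lungs was -0.46 ± 0.16 (adjusted p = 0.0696). By genotype H2ac20 differed by 0.40 ± 0.16 in intact lungs (adjusted p = 0.171) and by 0.34 ± 0.16 in ventilated ones (adjusted p = 0.202). None passed, and the groups overlapped in each comparison of H2ac20.

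H2bc21, an H2B gene whose transcript can also be polyadenylated, fell with ventilation in both genotypes. It read 6.46, 6.33 and 6.29 at baseline and 5.48, 6.08 and 5.87 under ventilation in wild type lungs. In Zmpste24-/- lungs it read 6.21, 6.15 and 6.17 at baseline and 5.70, 5.91 and 5.73 under ventilation. Every ventilated mouse of either genotype was below every baseline mouse. The endothelial marker Cldn5 was lower in the same comparisons, at -0.87 ± 0.11 in wild type (adjusted p = 0.000557) and -0.68 ± 0.11 in Zmpste24-/- lungs (adjusted p = 0.00107), and Pecam1 at -0.35 ± 0.09 in each (adjusted p = 0.0271 and 0.0137). Cdh5, the other endothelial marker, did not pass with ventilation in either genotype. Its means were 12.01 at baseline and 11.81 under ventilation in wild type lungs, and 11.66 and 11.5 in Zmpste24-/- lungs. Of the 10 markers of lung epithelium and endothelium, 2 were lower with ventilation in each genotype. Of all genes 3.53% were lower in wild type and 7.52% in Zmpste24-/- lungs. The part of endothelial cells in the falls of H2bc21 and H1f2 was not tested. The change of H2bc21 was -0.56 ± 0.13 in wild type lungs (1.47-fold, adjusted p = 0.016), the only call of a histone gene there. It was -0.39 ± 0.13 in Zmpste24-/- lungs (1.31-fold, adjusted p = 0.047). The difference between these responses was 0.16 ± 0.18 (95% interval -0.22 to 0.55, adjusted p = 0.791). The wild type call was lost without wild type baseline mouse 1 (adjusted p = 0.057) and with those 2 groups fitted alone (adjusted p = 0.0694). The Zmpste24-/- call was lost under 10 of the 12 fits that left out 1 array (adjusted p 0.0527 to 0.142), being kept without wild type ventilated mouse 1 or 2, and with each array's median subtracted (adjusted p = 0.0843), quantile normalization (adjusted p = 0.0751), an intensity trend (adjusted p = 0.0558), the replicate block (adjusted p = 0.0529) or all probes in 1 fit (adjusted p = 0.0974).

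Among the other H2A and H2B genes, H2ac1 passed once. H2ac1 and its neighbour H2bc1 encode testis forms of H2A and H2B, used when sperm chromatin is rebuilt. H2ac1 read 5.22, 5.68 and 5.24 (wild type baseline), 5.11, 5.32 and 5.37 (wild type ventilated), 4.90, 5.17 and 5.11 (Zmpste24-/- baseline) and 5.53, 5.41 and 5.63 (Zmpste24-/- ventilated). Every ventilated Zmpste24-/- mouse was above every baseline mouse of that genotype, while one wild type baseline mouse was higher than all of them. The rise in Zmpste24-/- lungs was 0.46 ± 0.13 (1.38-fold, adjusted p = 0.022), and the wild type difference was -0.11 ± 0.13 (adjusted p = 0.684). By genotype H2ac1 differed by -0.32 ± 0.13 at baseline (adjusted p = 0.158) and by 0.26 ± 0.13 under ventilation (adjusted p = 0.233). Neither passed, although the groups did not overlap, so the rise started from a Zmpste24-/- baseline below the wild type one. The rise was no longer called without Zmpste24-/- baseline mouse 1 (adjusted p = 0.0895), ventilated mouse 1 (adjusted p = 0.0563) or ventilated mouse 3 (adjusted p = 0.0934) of that genotype, and with all probes in 1 fit (adjusted p = 0.0537). H2bc1, on the other strand next to it, lay between 2.77 and 3.06 on all 12 arrays, with differences of -0.01 to 0.03 in the 4 comparisons of groups.

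Near the threshold were H2ac10, 0.34 ± 0.11 higher in Zmpste24-/- than in ventilated wild type lungs without overlap (adjusted p = 0.0648), and H2bc9, which differed by -0.37 ± 0.14 with ventilation in Zmpste24-/- lungs (adjusted p = 0.0881). The other H2A and H2B genes passed in no comparison. The median change of the 8 H2B genes ranged from -0.05 to 0.02 over the 4 comparisons of groups. That of the 6 H2A genes ranged from -0.06 to 0.13.

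**Figure D3:**
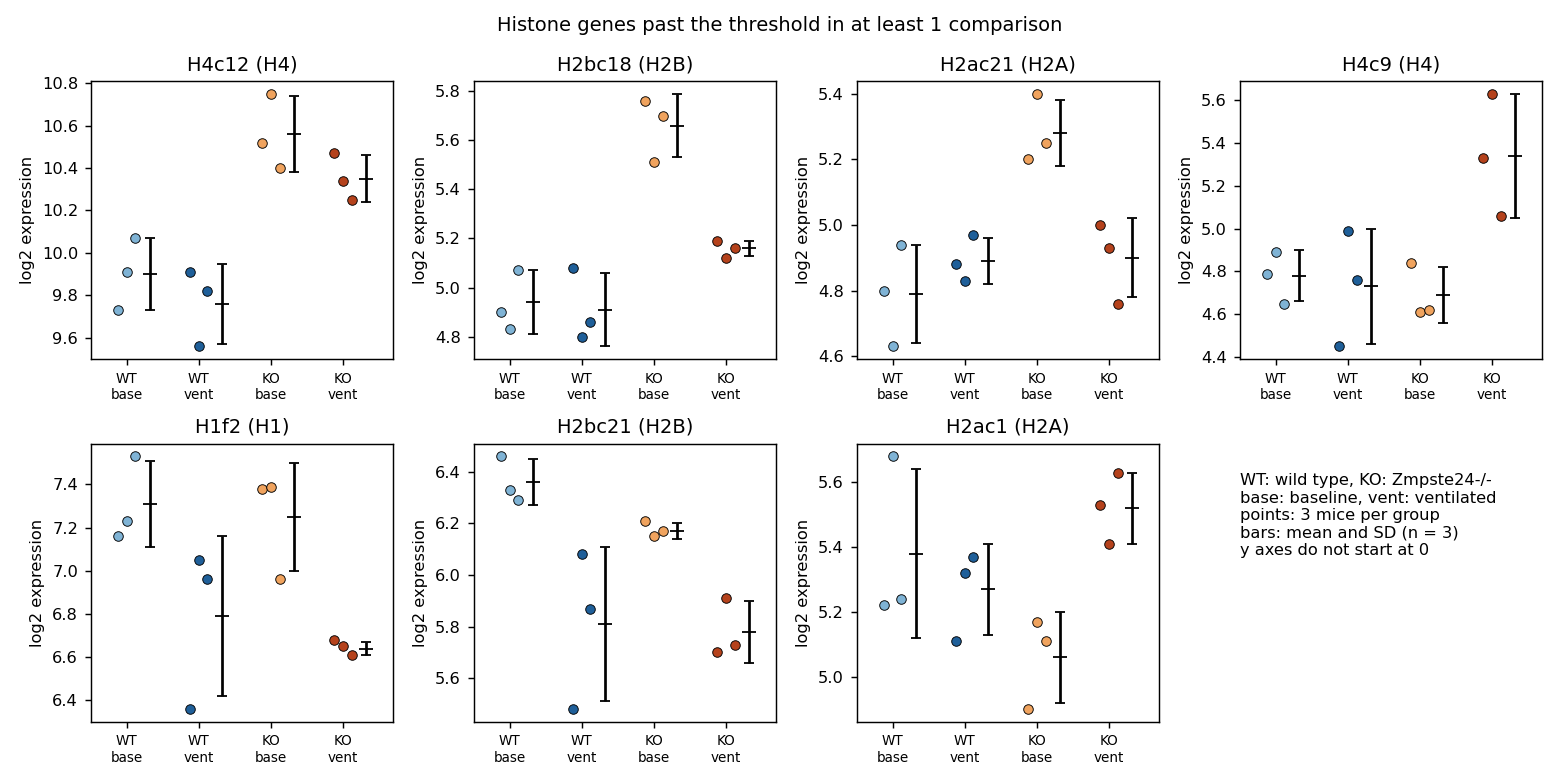
Log2 expression (y axis, not starting at 0) of the 7 histone genes that passed in at least 1 comparison, for 3 mice in each of 4 groups (points), with mean and SD (bars). In H2bc18 and H2ac21 the intact Zmpste24-/- mice stand above the other 9, and in H4c12 all 6 Zmpste24-/- mice stand above all 6 wild type mice.

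The H4 gene H4c12 passed by genotype both at baseline and under ventilation, and no other H4 gene of the set did so. H4c12 read 9.73, 9.91 and 10.07 in intact wild type lungs, 9.91, 9.56 and 9.82 in ventilated wild type lungs, 10.52, 10.75 and 10.4 in intact Zmpste24-/- lungs, and 10.47, 10.34 and 10.25 in ventilated Zmpste24-/- lungs. All 6 Zmpste24-/- mice were above all 6 wild type mice. The genotype difference was 0.65 ± 0.12 at baseline (1.57-fold, adjusted p = 0.00707) and 0.59 ± 0.12 under ventilation (1.5-fold, adjusted p = 0.00774). Ventilation itself gave -0.14 ± 0.12 in wild type lungs (adjusted p = 0.589) and -0.21 ± 0.12 in Zmpste24-/- lungs (adjusted p = 0.322). The genotype difference moved by -0.07 ± 0.17 between conditions (95% interval -0.44 to 0.31, adjusted p = 0.93).

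H4c9 differed in ventilated Zmpste24-/- lungs. Its values were 4.79, 4.89 and 4.65 (wild type baseline), 4.45, 4.99 and 4.76 (wild type ventilated), 4.84, 4.61 and 4.62 (Zmpste24-/- baseline) and 5.33, 5.63 and 5.06 (Zmpste24-/- ventilated). The 3 ventilated Zmpste24-/- mice were above the other 9. The rise with ventilation in Zmpste24-/- lungs was 0.65 ± 0.15 (1.57-fold, adjusted p = 0.00886). Between genotypes under ventilation the difference was 0.60 ± 0.15 (1.52-fold, adjusted p = 0.0202). At baseline the genotype difference was -0.09 ± 0.15 (adjusted p = 0.802), and in wild type lungs the ventilation difference was -0.04 ± 0.15 (adjusted p = 0.913). The genotype call was lost without wild type ventilated mouse 1 or 3, or Zmpste24-/- ventilated mouse 1 or 2 (adjusted p 0.0546 to 0.0876), and with those 2 groups alone (adjusted p = 0.0505).

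The remaining 5 H4 genes passed in no comparison, and H4c8 had the class's largest ventilation difference in wild type lungs (-0.27 ± 0.12, adjusted p = 0.227), which was -0.12 without wild type baseline mouse 3. All 7 H4 genes had a positive genotype difference under ventilation, from 0.01 to 0.60 with a median of 0.19. The median of all genes was 0.01. With quantile normalization all 7 stayed positive. Subtracting array medians raised the median of all genes to 0.06, so it could not test these signs. With that scaling 6 of 6 H2A genes and 26 of 29 histone genes were positive too. At baseline 5 of the 7 H4 genes were positive, with a median of 0.11. The H4 genes are close copies of each other, so these 7 rows need not be separate measurements.

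**Figure D4:**
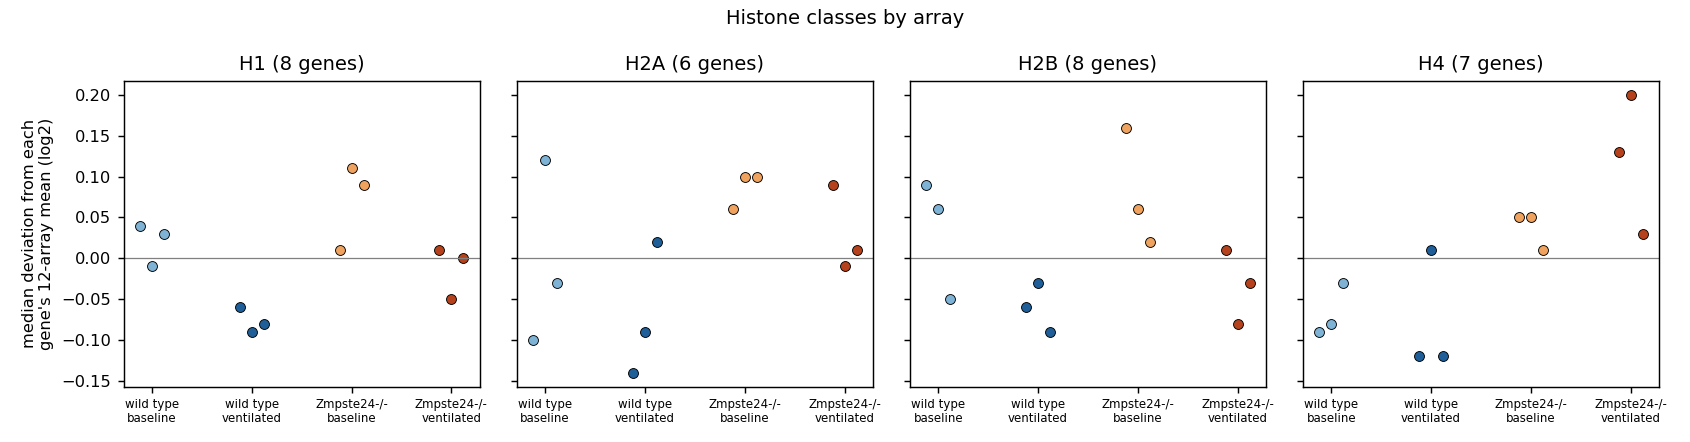
Median deviation of each class's genes from their own means over the 12 arrays (y axis, log2), 1 point per mouse, by group. The H4 medians of the Zmpste24-/- mice run from 0.01 to 0.20 and those of the wild type mice from -0.12 to 0.01.

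Probes that list several histone symbols cover the classes and copies missing above. There were 38, of which 3 repeat another probe's values, leaving 35: 12 of H3, 9 of H2A, 7 of H2B, 5 of H4, 1 of H1 and 1 that lists H1 and H2B. They were tested with all 41345 probes in 1 fit. With that adjustment 0 of 35 passed for ventilation in wild type lungs (5 had an unadjusted p under 0.05), against 2.94% of all probes. For Zmpste24-/- lungs 1 passed (8 had an unadjusted p under 0.05), against 8.81%. By genotype 1 passed at baseline (8 unadjusted) against 4.28%, and 3 under ventilation (13 unadjusted) against 7.51%. All of these calls were higher, and those under ventilation were of H4.

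An H4 probe that lists 13 symbols read 5.53, 6.23 and 5.47 (wild type baseline), 6.06, 5.65 and 6.05 (wild type ventilated), 5.69, 5.69 and 5.38 (Zmpste24-/- baseline) and 7, 6.45 and 7.22 (Zmpste24-/- ventilated). The ventilated Zmpste24-/- mice were again above the other 9, the order seen for H4c9. Such a probe may also take up H4c9 transcripts, so these rows need not be separate measurements. Its rise with ventilation in Zmpste24-/- lungs was 1.31 ± 0.23 (2.47-fold, adjusted p = 0.0052), and its genotype difference under ventilation 0.97 ± 0.23 (adjusted p = 0.0285). A second H4 probe, listing 6 symbols, read 4.40, 4.37 and 4.52 in wild type and 5.18, 4.97 and 5.12 in ventilated Zmpste24-/- lungs. The difference was 0.66 ± 0.10 (adjusted p = 0.00377), without overlap. The third, listing 13 symbols, differed by 0.58 ± 0.13 (adjusted p = 0.021). An H2A probe listing 10 symbols was 8.74, 8.85 and 8.92 in intact wild type lungs and 9.10, 9.64 and 9.47 in intact Zmpste24-/- lungs. That difference was 0.57 ± 0.13 (adjusted p = 0.0315). The most negative values of shared probes did not pass. An H2B probe listing 3 symbols differed by -0.86 ± 0.31 with ventilation in wild type lungs, with overlap (adjusted p = 0.189), and an H2A probe listing 10 by -0.77 ± 0.28 by genotype under ventilation, also with overlap (adjusted p = 0.129).

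H3, the core histone that carries many of the studied methylation and acetylation marks, was seen only through its 12 shared probes. None passed, with adjusted p of 0.0873 at the lowest. Ventilation gave their median as -0.08 for wild type and 0.01 for Zmpste24-/- lungs. By genotype the median was 0.01 at baseline and 0.10 under ventilation. Single H3 probes ranged from -0.45 to 0.37 over these 4 comparisons. The probe that lists H1 and H2B was -0.60 ± 0.17 with ventilation in Zmpste24-/- lungs (adjusted p = 0.0525) and -0.44 ± 0.17 in wild type lungs (adjusted p = 0.23).

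**Figure D5:**
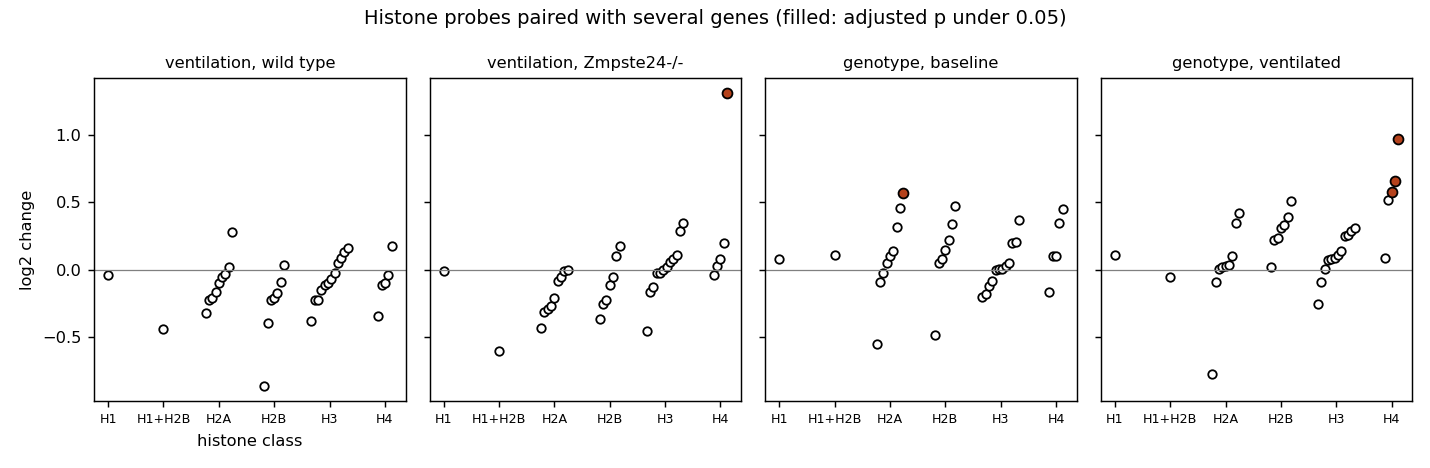
Log2 changes of the 35 distinct probes that list several histone symbols, with class on the x axis and 1 panel per comparison of groups; filled points passed. The 12 H3 points of each comparison hold no passed probe, and 3 of the 5 H4 points pass by genotype under ventilation.

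The responses to ventilation were compared between genotypes by the interaction of both factors. Of the 29 histone genes 0 passed in limma at adjusted p under 0.05, where 70 of all genes (0.316%) did, 0.266% as higher and 0.0496% as lower, and 5 had an unadjusted p under 0.05. With all probes in 1 fit the count was also 0, against 0.00967% of all probes. The largest differences in response were 0.69 ± 0.21 for H4c9 (adjusted p = 0.194) and 0.58 ± 0.18 for H2ac1 (adjusted p = 0.198), both more positive in Zmpste24-/- lungs. H2ac21 (-0.49 ± 0.14, adjusted p = 0.162) and H2bc18 (-0.48 ± 0.14, adjusted p = 0.17) were more negative there. The H1 gene with the largest value was H1f7, 0.17 ± 0.14 (adjusted p = 0.714). So the ventilation changes called in Zmpste24-/- lungs alone are not shown to differ from those in wild type lungs.

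Histone genes outside the symbols used above give a further look. H4f16, an H4 gene known earlier as Hist4h4, was higher in Zmpste24-/- lungs, by 0.86 ± 0.18 at baseline (1.81-fold, adjusted p = 0.014) and 0.77 ± 0.18 under ventilation (1.71-fold, adjusted p = 0.0154). All 6 Zmpste24-/- mice (6.85 to 7.29) were above all 6 wild type mice (5.89 to 6.56), as for H4c12. Of 10 replacement and variant histones measured, forms mostly deposited outside replication, 3 were also among the 29. For ventilation in wild type lungs 1 of 10 passed, against 7.2% of all genes. By genotype at baseline 1 of 10 passed, against 6.31%. Both calls were Macroh2a2, a macroH2A linked to silent chromatin. It was lower with ventilation in wild type lungs (-0.66 ± 0.15, adjusted p = 0.0179) and in intact Zmpste24-/- lungs (-0.55 ± 0.15, adjusted p = 0.0444). Both comparisons share the wild type baseline mice, whose mean was 5.21. The means were 4.55 in wild type ventilated, 4.65 in Zmpste24-/- baseline and 4.62 in Zmpste24-/- ventilated lungs.

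Genes that make and process histone transcripts were measured for 19 of the 20 listed. With ventilation in Zmpste24-/- lungs 7 of 19 rose and 0 fell, with a list median of 0.27, where 8.89% of all genes rose and 7.52% fell and the median of all genes was -0.01. In wild type lungs 0 of 19 passed, against 7.2% of all genes. The 7 included Nfya (0.54 ± 0.09, adjusted p = 0.00109) and Nfyb (0.63 ± 0.13, adjusted p = 0.00476), subunits of the NF-Y factor that binds CCAAT boxes. Nfyc, the remaining NF-Y subunit, did not pass, with means of 7.89 in intact and 7.98 in ventilated Zmpste24-/- lungs. Slbp, the stem-loop binding protein, rose by 0.39 ± 0.09 (adjusted p = 0.0104), and Eri1, an exonuclease that acts on the stem-loop, by 0.41 ± 0.09 (adjusted p = 0.00441). Upf1, a helicase of histone mRNA decay, rose by 0.55 ± 0.09 (adjusted p = 0.00106). By genotype under ventilation Yy1, Nfya, Nfyb and Slbp were higher, by 0.31 to 0.65, where 4.72% of all genes were higher. At baseline 0 of 19 passed, against 6.31%. Nfya also passed the interaction, 0.68 ± 0.13 (adjusted p = 0.0441).

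Histone chaperones, which carry histones to DNA, were measured for 22 of 24. Nasp, a chaperone of H1 and H3-H4, rose with ventilation by 0.56 ± 0.13 in wild type lungs (adjusted p = 0.0173) and by 1.03 ± 0.13 in Zmpste24-/- lungs (adjusted p = 0.000128). With ventilation of Zmpste24-/- lungs 4 of 22 rose, with Ubn1, Supt6 and Daxx beside Nasp, and 0 fell, where 8.89% of all genes rose and 7.52% fell. Of 32 measured genes of DNA replication and S phase, 2 rose and 1 fell with ventilation in Zmpste24-/- lungs, a share below the 16.4% of all genes called there, and 0 passed in wild type lungs, against 7.2%. With ventilation in Zmpste24-/- lungs Pcna, the sliding clamp, rose by 0.80 ± 0.08 (adjusted p = 2.76e-05). Cdk2 rose there by 0.37 ± 0.09, and Pold1, a polymerase subunit, was -0.29 ± 0.09. Cdk2 was also lower in intact Zmpste24-/- lungs (-0.36 ± 0.09, adjusted p = 0.034), the 1 call of 32 at baseline, against 6.31% of all genes. Its means were 7.67 and 7.60 in wild type baseline and ventilated lungs, and 7.31 and 7.68 in Zmpste24-/- ones. Pcna was also higher by genotype under ventilation, by 0.61 ± 0.08 (adjusted p = 0.00061). The S phase list median for ventilation in Zmpste24-/- lungs was -0.03. The list level ran from 6.04 to 6.10 in ventilated Zmpste24-/- lungs and from 6.03 to 6.11 in intact ones.

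Of 11 measured markers of dividing cells, 2 were lower in intact Zmpste24-/- lungs (Bub1 and Ccnb2) and 4 in ventilated ones (Ccnb2, Top2a, Plk1 and Mki67), with 0 higher, where 4.11% and 6.08% of all genes were lower. The other 9 and 7 did not pass. The mean level of the list was 5.25 to 5.33 and 5.21 to 5.59 in wild type baseline and ventilated lungs, and 5.08 to 5.12 and 5.05 to 5.22 in Zmpste24-/- ones. The part of dividing cells in the histone differences was not tested. With ventilation 1 of 11 markers was higher and 0 lower in each genotype, where 3.67% of all genes in wild type and 8.89% in Zmpste24-/- lungs were higher. That marker was Ccnb2, a mitotic cyclin, which rose by 0.59 ± 0.10 (adjusted p = 0.00369) and 0.44 ± 0.10 (adjusted p = 0.00887). The list medians were 0.10 and 0.03.

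Blood cell markers also moved with genotype and ventilation. In bulk lung, fewer cells of a type and less RNA per cell cannot be told apart. Neutrophil markers were higher with ventilation in 5 of 10 in wild type (3.67% of all genes were) and 9 of 10 in Zmpste24-/- lungs (8.89%), and by genotype under ventilation in 7 of 10 (4.72%). Their mean level was 6.17 to 6.87 in wild type baseline, 7.13 to 7.66 in wild type ventilated, 6.52 to 7.27 in Zmpste24-/- baseline and 8.36 to 8.52 in ventilated Zmpste24-/- lungs, so the group in which H4c9 was high was also the highest here. B cell markers were lower in Zmpste24-/- lungs in 6 of 8 at baseline (4.11% of all genes) and 8 of 8 under ventilation (6.08%), with means of 6.94 to 7.86 over wild type and 6.16 to 7.05 over Zmpste24-/- mice. T and NK cell markers were lower in 6 of 10 and 7 of 10, against the same shares, with means of 6.33 to 6.97 and 5.68 to 6.16. With ventilation T and NK cell markers were lower in 3 of 10 in each genotype, where 3.53% of all genes in wild type and 7.52% in Zmpste24-/- lungs were lower, and B cell markers in 3 of 8 in Zmpste24-/- lungs and 0 of 8 in wild type lungs. Platelet markers were lower by genotype in 1 of 7 at baseline (4.11% of all genes) and 3 of 7 under ventilation (6.08%). The baseline call was Ppbp (-1.33 ± 0.17, adjusted p = 0.000946), while the list median there was 0.19. With ventilation in wild type lungs 1 of 7 was higher (3.67% of all genes), Gp5, by 0.71 ± 0.10 (adjusted p = 0.00121). In no comparison did any of the 3 erythroid or 4 thymocyte markers pass. No marker has a level of 0 on this scale. The part of these cells in the histone differences was not tested.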

How the data were processed

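Total RNA of 12 whole lungs (4 groups of 3 mice) was labelled and hybridised to one-colour Affymetrix arrays, per the labels' protocols. The deposited log2 values were made by the authors with RMA, per the submitters' processing notes, which also name limma (versions and the genome build of the probes: not given in the sources used here). They were used without further scaling. Of 41345 probes, 23521 had 1 gene symbol, 1814 several and 16010 none in the platform annotation; the 1-symbol probe with the highest mean gave 22180 genes. R 4.3.3 with limma 3.58.1 fitted 4 group means to all 12 arrays, with eBayes and Benjamini-Hochberg adjustment over all genes in each of 5 contrasts. Spread is between mice, with 3 arrays a group limiting precision; the smallest exact permutation p for 3 against 3 is 0.1. The fit was tested on simulated data. Members and lists were chosen with earlier results of these data known. Named genes were those that passed, each class's largest change in each contrast, and H1f2, H2bc21, H1f6, H2ac1 and H2bc1. Samples sharing a number correlated by -0.129 to 0.153 (deviations from group means), so numbers were not taken as pairs. Promoters came from RefSeq (GRCm38.p6). Alternatives were 8 other settings, leaving out each array, and, added after seeing the data, all probes in 1 fit. Probes with several symbols were left out of gene values.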

Additional observations from a re-analysis of the deposited data

How the results depend on the processing

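Of the calls, those of H2bc18 (genotype at baseline and ventilation in Zmpste24-/-), H4c12 (both genotype comparisons), H2ac21 (genotype at baseline) and H4c9 (ventilation in Zmpste24-/-) were kept under every setting in which the gene was tested. Counts of histone genes past the threshold moved by over 1.5 times under few settings. With genes under the median level left out, which keeps 4 histone genes, the count was 0 for ventilation in wild type, 2 for ventilation in Zmpste24-/- and 1 for genotype at baseline. With the 2 groups alone it was 0 for ventilation in wild type. With all probes in 1 fit, chosen after seeing the data, it was 3 for ventilation in Zmpste24-/-. With 1 array left out the counts ranged from 0 to 2 (ventilation in wild type), 2 to 6 (ventilation in Zmpste24-/-), 3 to 4 (genotype at baseline) and 1 to 3 (genotype under ventilation), and stayed at 0 for the interaction. The lowest count in Zmpste24-/- came without ventilated mouse 3 of that genotype, and 3 genes were called without its ventilated mouse 1 or baseline mouse 2; 0 in wild type came without wild type baseline mouse 1, 2 without its ventilated mouse 2. Genotype under ventilation gave 1 without wild type ventilated mouse 1 or 3, or Zmpste24-/- ventilated mouse 1 or 2. The replicate block ended 1 call, that of H2bc21 with ventilation in Zmpste24-/- (adjusted p = 0.0529); the labels share numbers only.

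Signs turned only for values that were not called. Under ventilation H2bc21's genotype difference became 0.03 with array medians subtracted and 0.02 with quantile normalization, and ranged from -0.19 to 0.11 with 1 array left out. H2bc1's became 0.05 and 0.01 under these scalings, and its interaction 0.02 with medians subtracted. With 1 array left out H2bc1 ranged from -0.04 to 0.10 and from -0.01 to 0.02 for ventilation in wild type and Zmpste24-/-, from -0.06 to 0.05 and from -0.08 to 0.05 for genotype at baseline and under ventilation, and from -0.09 to 0.05 for the interaction. H2ac1 ranged from -0.19 to 0.04 (ventilation in wild type). H1f6 ranged from -0.10 to 0.02 (ventilation in Zmpste24-/-), from -0.02 to 0.14 (genotype at baseline) and from -0.02 to 0.14 (interaction). H1f2 ranged from -0.13 to 0.08 (genotype at baseline) and from -0.30 to 0.04 (interaction). Medians of the classes and of all 29 genes were followed for every combination of class, comparison and fit. With 1 array left out, 50 such combinations moved by more than the spread between mice and 250 stayed within it. Under the other settings 43 combinations moved and 172 did not. Outside the level filters, the H4 median of genotype under ventilation ran from 0.12 to 0.24, and the H1 median of ventilation from -0.11 to -0.05 in wild type and from -0.13 to -0.03 in Zmpste24-/- lungs. The cause was not tested.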

Other observations

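H2aw, an H2A gene known earlier as Hist3h2a and outside the symbols used above, passed in no comparison. It read 5.84 ± 0.06 (SD, n = 3) in wild type baseline, 5.50 ± 0.19 in wild type ventilated, 5.83 ± 0.46 in Zmpste24-/- baseline and 5.69 ± 0.33 in Zmpste24-/- ventilated lungs. Among chaperone genes Npm1, a nucleolar histone chaperone, was higher in Zmpste24-/- lungs in limma over all genes, by 0.30 ± 0.08 (adjusted p = 0.0493) when intact and by 0.39 ± 0.08 (adjusted p = 0.00946) when ventilated. Daxx, the H3.3 chaperone, was lower in intact Zmpste24-/- lungs (-0.36 ± 0.09, adjusted p = 0.0302).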
